A study of Sus scrofa with 4 samples.

Results

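Alveolar type 2 and surfactant genes were described in lung cells of pigs sorted by a fluorescent LGR5 reporter. The set consisted of SFTPC, SFTPB, SFTPA1, SFTPD, LAMP3, ABCA3, NAPSA, SLC34A2, ETV5 and LPCAT1, and its members were found by gene name in the count table of each library. Of the 10 genes, 9 had a row among the 29263 genes of each table. LAMP3 had no row under that name and was not analysed here. All 9 passed the filter on low counts, which left 19682 genes for testing.

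The genotype given is an LGR5-H2B-GFP knock-in: green fluorescent protein joined to histone H2B is made where LGR5, a receptor for R-spondins, is transcribed. All 4 libraries share this genotype, so the control is another fraction of the same tissue and not a wild-type animal. Lung was digested with enzymes and live cells were sorted into a bright fraction (GFP-HI, 2 libraries) and a fraction without fluorescence (GFP-NEG, 2 libraries), with biological replicates numbered 1 and 2 in each. The labels give no treatment, and their protocol covers adult and fetal lung together; the name of the authors' comparison table of these libraries says that the pigs were adult. Antibodies to EPCAM and NGFR are mentioned in that protocol, but not which gates apply to these libraries.

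Alveolar type 2 cells line the gas-exchange surface and secrete surfactant, a film of phospholipid and protein that lowers surface tension. The lipid is built and packed in lamellar bodies, which fuse with the cell membrane to release it. The hydrophobic surfactant proteins B and C help the film spread, and surfactant proteins A and D are collectins, soluble lectins of innate defence. Alveolar macrophages and the type 2 cells themselves take up spent surfactant. These genes are widely used to mark the type 2 cell.

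The GFP-HI libraries held 24200550 and 24689986 counts for replicates 1 and 2, and the GFP-NEG libraries 6292253 and 7045652. Depth and fraction therefore cannot be told apart by the design. One count was worth 0.0453 to 0.0496 CPM in GFP-HI and 0.11 to 0.155 CPM in GFP-NEG, where CPM is counts per 1000000 after TMM scaling of the libraries. LGR5 was at 145.8 and 152.3 CPM in GFP-HI and at 1.55 and 0.767 CPM in GFP-NEG, which checks the labels. EPCAM, the general epithelial surface marker, was at 2.04 and 1.64 CPM in GFP-HI and at 5.59 and 3.84 CPM in GFP-NEG (33 to 45 counts in each library). NKX2-1, the transcription factor that defines alveolar epithelium, had 86 counts in GFP-HI replicate 1 and 1 count in GFP-HI replicate 2, against 34 and 14 in GFP-NEG. The fibroblast genes PDGFRA, COL1A1, COL1A2, COL3A1, LUM, DCN, FBLN1 and TCF21 summed to 81120 and 71310 CPM in GFP-HI, where the 9 surfactant genes summed to 170.9 and 310.7 CPM. In GFP-NEG the fibroblast genes also exceeded the set, with 25210 and 9001 CPM against 504.1 and 212.9 CPM.

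SFTPB, NAPSA and SLC34A2 fell in GFP-HI relative to GFP-NEG, by 1.61, 3.02 and 2.56 on the log2 scale. The other 6 genes did not pass the test, and 0 of the 9 rose. The set did not move as one: SFTPC, SFTPA1, ETV5 and LPCAT1 differed in opposite directions in replicates 1 and 2, while SFTPB, SFTPD, NAPSA and SLC34A2 were lower and ABCA3 higher in GFP-HI in both. Not all of these directions were clear. The 95% interval for counting error included no difference for LPCAT1 in replicate 1 and for SFTPD in replicate 2. SFTPA1 in replicate 2 changed sign with plain library-size CPM. In bulk libraries, fewer cells of a type and less RNA per cell cannot be told apart.

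The test was edgeR's quasi-likelihood test over all 19682 genes with Benjamini-Hochberg adjustment, and an adjusted p under 0.05 was called. Over all genes, 36% were called, 27.6% lower and 8.35% higher in GFP-HI, so the 3 calls among 9 genes stand near the background of lower calls. That background has a limit. Genes with any count numbered 18752 and 18392 in GFP-HI, but 24120 and 25985 in the shallower GFP-NEG libraries. Some lower calls were very large, such as CDX4 (-8.39) and CASR (-8.19). How much of the 27.6% comes from genes nearly absent from GFP-HI was not tested. With GFP-HI replicate 1, GFP-HI replicate 2 or GFP-NEG replicate 1 left out, 1 gene of the set (NAPSA) was called lower, and without GFP-NEG replicate 1 ETV5 was called higher. No gene of the set was higher at an unadjusted p under 0.05 either, and DESeq2 also gave 3 lower and 0 higher calls. The median log2 fold change of the 9 genes was -0.81, against -0.25 over all genes tested. Within replicate 1 the median difference of the set was -1.88, and within replicate 2 it was -0.11. Over all tested genes these medians were -0.18 and -0.36 (0.5 CPM added). With 2 libraries against 2, an exact permutation test of a single gene cannot go below a p of 0.333, so none was run. The model moderated the spread of each gene fully to the common trend, so that a gene's own replicate scatter weighed little in its p-value.

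**Figure D1:**
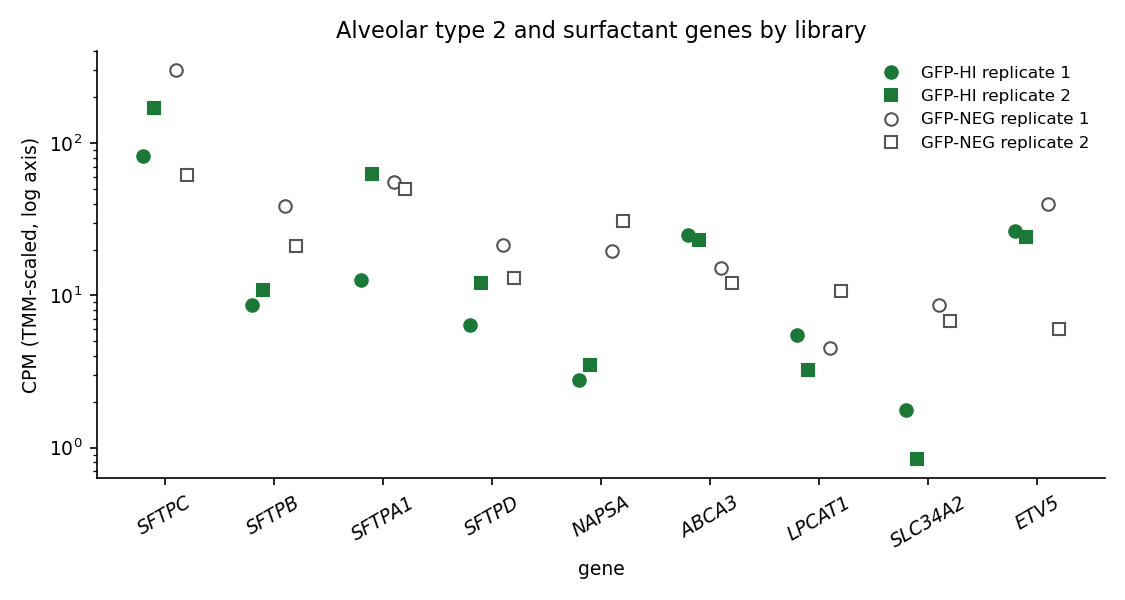
Level of each of the 9 genes in each library, in TMM-scaled CPM on a log axis. Filled green symbols are GFP-HI and open grey symbols GFP-NEG, with circles for replicate 1 and squares for replicate 2. The green symbols of SFTPB, NAPSA and SLC34A2 lie below both grey ones, while the grey symbols of SFTPC (301 and 62.1 CPM) and ETV5 (39.8 and 6.03 CPM) lie on either side of the green pair.

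Surfactant protein C is made as a proprotein by type 2 cells and its gene is the usual defining marker of that cell. The GFP-HI replicates 1 and 2 held 1808 and 3432 SFTPC counts, and the GFP-NEG replicates 1940 and 566. These correspond to 81.9 and 170.1 CPM in GFP-HI and to 301 and 62.1 CPM in GFP-NEG. The highest and the lowest of the 4 values were both GFP-NEG libraries, and the groups overlapped. Within replicate 1, SFTPC was 3.68-fold lower in GFP-HI (log2 difference -1.88, 95% interval -1.97 to -1.79). Within replicate 2 it was 2.74-fold higher in GFP-HI (log2 difference 1.46, 95% interval 1.33 to 1.59). These intervals are exact binomial (Clopper-Pearson) and cover counting error only, so they say nothing of the spread between animals. The mean CPM was 126 ± 62.4 for the bright fraction and 182 ± 169 for the negative one (SD, n = 2 each), and the log2 fold change of -0.53 ± 0.59 (SE) did not pass the test (adjusted p of 0.525, edgeR). It was 1.07 without GFP-NEG replicate 1 and -1.29 without GFP-NEG replicate 2. Neither value passed the threshold.

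Surfactant protein B is needed for lamellar bodies to form and for the film to spread. SFTPB was at 8.61 and 10.8 CPM in GFP-HI and at 38.4 and 20.9 CPM in GFP-NEG. Both GFP-HI libraries were below both GFP-NEG libraries. The means were 9.71 ± 1.56 and 29.6 ± 12.3 CPM (SD, n = 2 each), a 3.05-fold lower level in GFP-HI. In log2 units SFTPB changed by -1.61 ± 0.57 (SE), at an adjusted p of 0.0167 (edgeR). The authors' deposited table has -1.61 at an adjusted p of 0.0317, the same values that DESeq2 gave here on the same counts. The difference was 4.45-fold within replicate 1 and 1.94-fold within replicate 2, both lower in GFP-HI. Its call was lost without GFP-HI replicate 1 (log2 fold change -1.33), GFP-HI replicate 2 (-1.71) or GFP-NEG replicate 1 (-1.06). The adjusted p-values of these 3 edgeR fits were 0.157, 0.0923 and 0.283, and each fit assumes that the lone library of a group varies like the other group. Without GFP-NEG replicate 2 it was -2.02 and passed (adjusted p of 0.0351, edgeR).

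Surfactant proteins A and D bind sugars on microbes and opsonise them for macrophages. In the Sscrofa11.1 annotation of RefSeq their genes lie on the same chromosome with 1 listed gene between them. SFTPA1 was counted 279 and 1271 times in the GFP-HI libraries and 359 and 459 times in the GFP-NEG libraries, which is 12.6 and 63.0 CPM against 55.7 and 50.3 CPM. The GFP-HI libraries held both the lowest and the highest of the 4 values, and the GFP-NEG libraries differed little. SFTPA1 was thus 4.41-fold lower in GFP-HI within replicate 1. Within replicate 2 the log2 difference was 0.32 (95% counting interval 0.17 to 0.48), and with plain library-size CPM it was -0.34, so its direction there depends on the scaling. The log2 fold change of -0.49 ± 0.51 (SE) did not pass the test (adjusted p of 0.495, edgeR). It was 0.39 without GFP-HI replicate 1 and -1.98 without GFP-HI replicate 2.

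SFTPD was at 6.43 and 12.1 CPM in GFP-HI and at 21.3 and 13.1 CPM in GFP-NEG. The GFP-HI values were both lower, but GFP-HI replicate 2 and GFP-NEG replicate 2 were close. The difference was 3.31-fold within replicate 1, and within replicate 2 the log2 difference was -0.11, with a counting interval of -0.43 to 0.22 that includes no difference. The log2 fold change of -0.89 ± 0.61 (SE) did not pass the test (adjusted p of 0.272, edgeR). It was -0.38 without GFP-HI replicate 1 and -0.44 without GFP-NEG replicate 1.

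Napsin A is an aspartic protease that helps to cut the surfactant protein B precursor. NAPSA was counted 61 and 70 times in the GFP-HI libraries and 126 and 282 times in the shallower GFP-NEG libraries. This is 2.76 and 3.47 CPM against 19.6 and 30.9 CPM, with no overlap between the groups. NAPSA was 7.08-fold lower in GFP-HI within replicate 1 and 8.91-fold lower within replicate 2. This was -3.02 ± 0.65 (SE) in log2 units, or 8.09-fold lower, at an adjusted p of 6.06e-05 (edgeR). In the authors' deposited table NAPSA stands at -3.03 and an adjusted p of 6.55e-05. With single libraries left out it ranged from -3.26 to -2.69 and passed the threshold each time, the only gene of the set of which this held. Of the GFP-NEG libraries, replicate 2 had the higher NAPSA level, whereas SFTPC and SFTPB were lower there. The leukocyte list (PTPRC, CD3E, CD79A, MS4A1, CD14, ITGAM, LCP1 and CORO1A) was also higher in GFP-NEG, with a summed level of 3316 and 4948 CPM against 291 and 611 CPM in GFP-HI. None of its 8 genes was at 0 in a library. The part of leukocytes in the NAPSA difference was not tested.

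SLC34A2, a sodium-phosphate cotransporter of the type 2 cell that clears phosphate from surfactant, was at 1.77 and 0.843 CPM in GFP-HI and at 8.70 and 6.80 CPM in GFP-NEG. Its counts were low, 39 and 17 for the GFP-HI libraries and 56 and 62 for the GFP-NEG libraries, and in CPM the groups did not overlap. It was 4.92-fold lower within replicate 1 and 8.07-fold lower within replicate 2. SLC34A2 changed by -2.56 ± 0.97 (SE) in log2 units at an adjusted p of 0.0265 (edgeR), and the authors' deposited table has -2.57 at an adjusted p of 0.0161. The call was lost without GFP-HI replicate 1 (-3.05), GFP-HI replicate 2 (-2.04) or GFP-NEG replicate 1 (-2.32), and the adjusted p-values of these edgeR fits were 0.058, 0.15 and 0.115.

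Over the set, 4 genes were lower in GFP-HI without overlap between the groups, 1 was higher without overlap and 4 overlapped. Groups without overlap made up 69.7% of all genes tested: 42% were lower and 27.7% higher without overlap, so the set is close to this background on the lower side.

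The 2 lipid genes of the set did not pass the test. ABCA3 encodes the transporter that moves phospholipid into lamellar bodies. Its counts were 550 and 465 for GFP-HI and 97 and 110 for GFP-NEG, or 24.9 and 23.1 CPM against 15.1 and 12.1 CPM. ABCA3 was the 1 gene of the set for which both GFP-HI libraries lay above both GFP-NEG libraries. It was 1.66-fold higher within replicate 1 and 1.91-fold higher within replicate 2. Its fitted log2 fold change of 0.82 ± 0.57 (SE) did not pass the test (adjusted p of 0.268, edgeR), and it ranged from 0.63 to 1.04 with single libraries left out. With library-size scaling it was 0.41, nearer to 0 but with the same sign.

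LPCAT1 adds a saturated fatty acid to lysophosphatidylcholine and so makes the main surfactant lipid. LPCAT1 was at 5.53 and 3.22 CPM in GFP-HI and at 4.50 and 10.7 CPM in GFP-NEG. GFP-NEG replicate 2 stood above the other 3 libraries, and the groups overlapped. Within replicate 1 the log2 difference was 0.30 with a counting interval of -0.30 to 0.93, and within replicate 2 the gene was 3.33-fold lower in GFP-HI. LPCAT1 had a log2 fold change of -0.81 ± 0.81 (SE) and did not pass the test (adjusted p of 0.473, edgeR). It was -0.08 without GFP-NEG replicate 2.

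ETV5 is an ETS-family transcription factor that maintains the type 2 cell and is also used in other tissues as a target of FGF signalling. ETV5 was at 26.4 and 24.0 CPM in GFP-HI, a narrow range, and at 39.8 and 6.03 CPM in GFP-NEG. As for SFTPC, the GFP-NEG libraries held the highest and the lowest value. ETV5 was 1.51-fold lower in GFP-HI within replicate 1 and 3.99-fold higher within replicate 2. The log2 fold change of 0.15 ± 0.54 (SE) did not pass the test (adjusted p of 0.864, edgeR), and its sign changed with the scaling (-0.15 with library size only). Leaving out GFP-NEG replicate 1 gave 2.11, which passed (adjusted p of 0.0338, edgeR). Leaving out GFP-NEG replicate 2 gave -0.69, which did not.

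**Figure D2:**
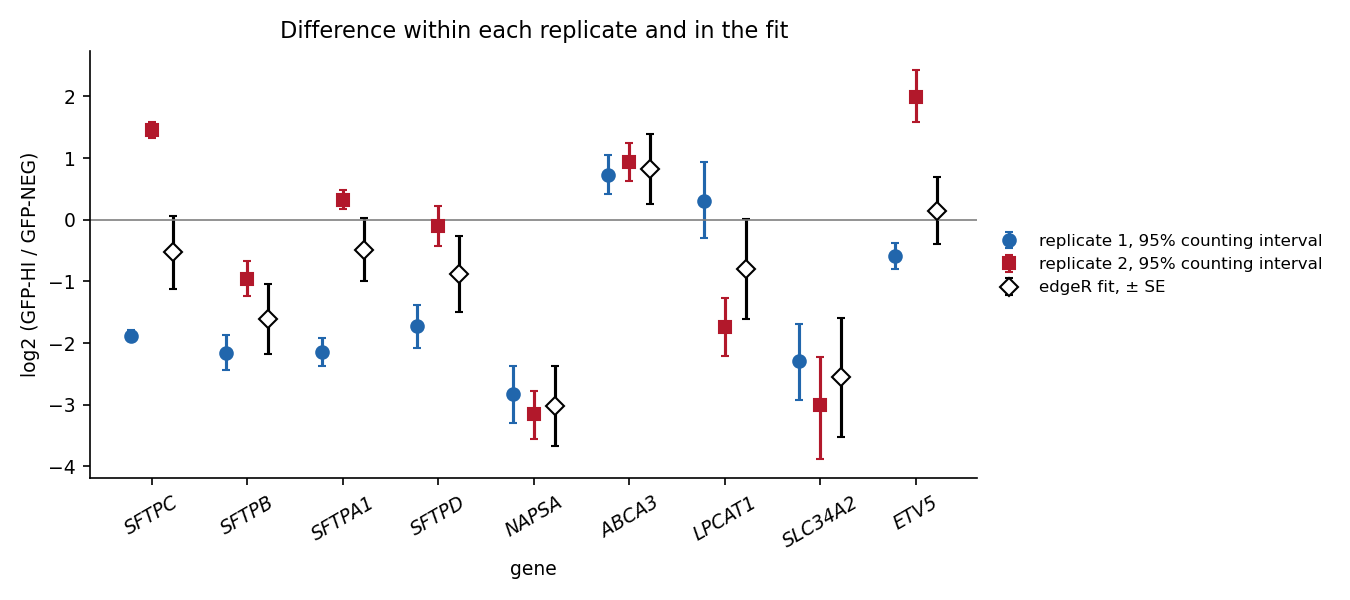
Log2 ratio of GFP-HI to GFP-NEG for each gene within replicate 1 (blue circles) and replicate 2 (red squares), with 95% counting intervals, and the edgeR log2 fold change (open diamonds, ± SE). SFTPC lies at -1.88 and 1.46 in the 2 replicates and ETV5 at -0.59 and 2.00, on opposite sides of 0, while the 2 values of NAPSA lie at -2.82 and -3.16.

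Within replicate 1, 7 of the 9 genes were lower in GFP-HI and 2 were higher. Within replicate 2, 5 were lower and 4 higher. Opposite directions in the 2 replicates were seen for 4 of 9 genes (3 of 9 with plain library-size CPM), and for 20% of all genes tested. The replicate numbers were taken to stand for 2 pigs.

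**Figure D3:**
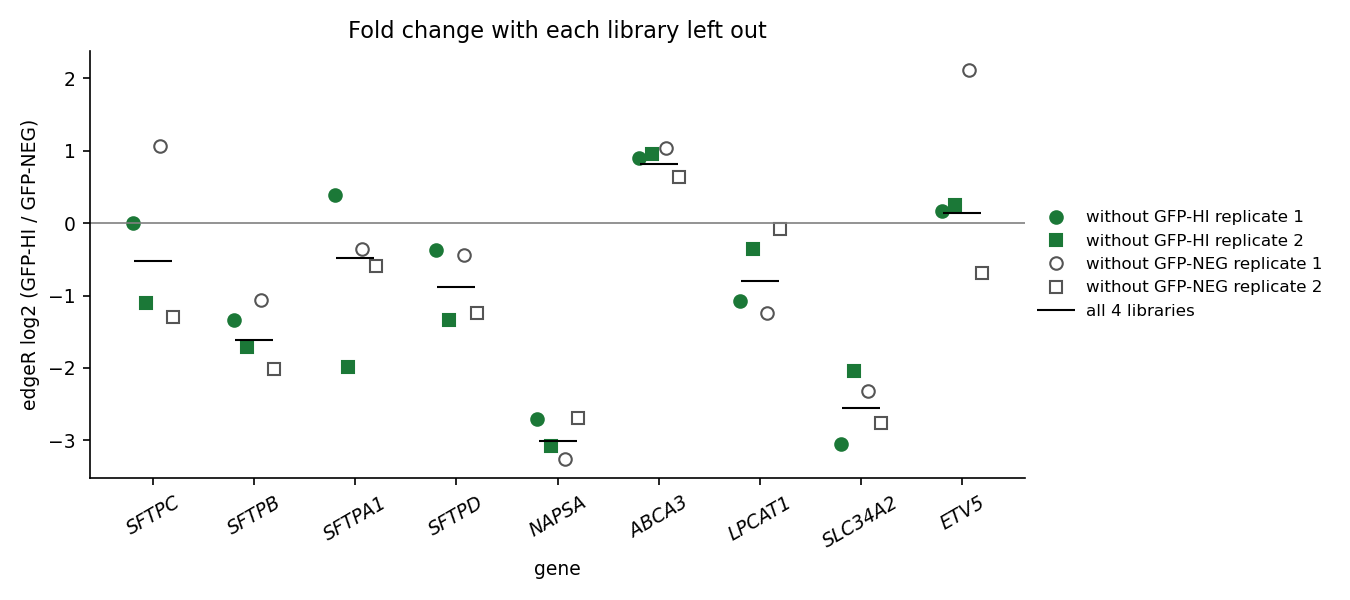
Log2 fold change of each gene from edgeR with each library left out in turn (symbols) and with all 4 libraries (black bars). The symbols of NAPSA stay between -3.26 and -2.69, and those of SFTPC spread from -1.29 to 1.07.

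The make-up of the set within a library does not depend on how libraries are scaled, and it also differed. For each 100 counts of SFTPC, SFTPB had 10.5 and 6.35 counts in GFP-HI replicates 1 and 2, and 12.7 and 33.8 counts in GFP-NEG. SFTPD had 7.85 and 7.11 per 100 SFTPC counts in GFP-HI, and in GFP-NEG 7.06 (replicate 1) and 21.0 (replicate 2). For both genes, GFP-NEG replicate 2 stood apart and the other 3 libraries were closer to each other. GFP-NEG replicate 2 also held the fewest SFTPC counts (566). In CPM, its SFTPB and SFTPD levels were below those of GFP-NEG replicate 1. NAPSA reached 3.37 and 2.04 per 100 SFTPC counts in the GFP-HI libraries, against 6.50 and 49.8 in the GFP-NEG libraries. SLC34A2 ranged from 0.495 in GFP-HI replicate 2 to 11.0 in GFP-NEG replicate 2. For ABCA3 the ratio was 30.4 and 13.6 in GFP-HI, against 5.00 and 19.4 in GFP-NEG, so that GFP-NEG replicate 1 was the lowest. These are ratios of counts without a correction for gene length and compare libraries, not genes.

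**Figure D4:**
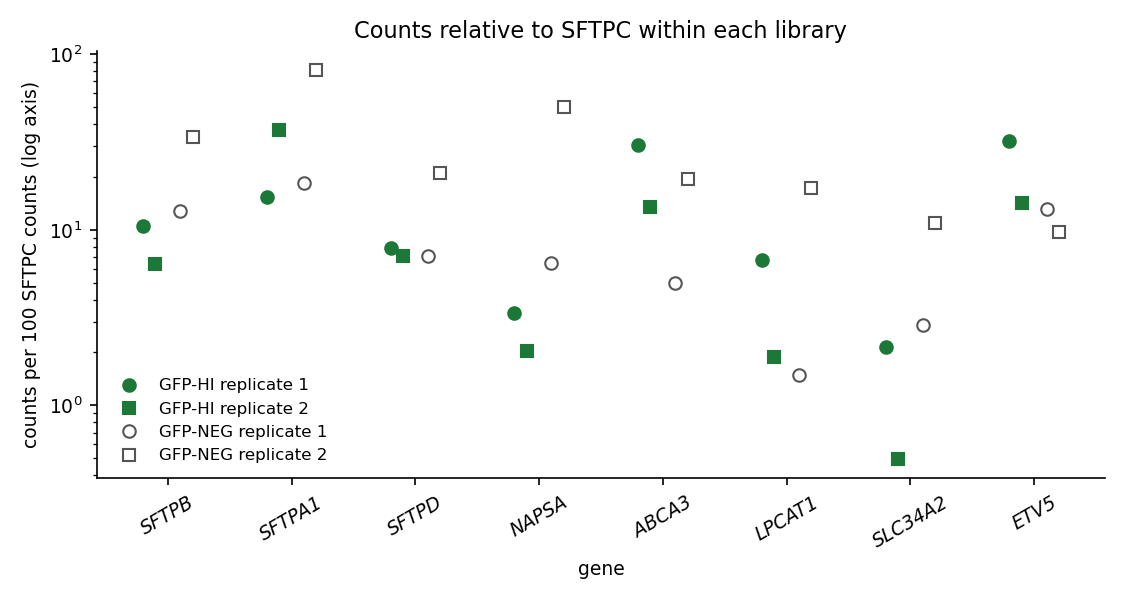
Counts of each gene per 100 counts of SFTPC in the same library, on a log axis, with symbols as in the plot of levels by library. GFP-NEG replicate 2 (open squares) is the highest library for SFTPB, SFTPA1, SFTPD, NAPSA, LPCAT1 and SLC34A2, with 49.8 for NAPSA. It is also the library with the fewest SFTPC counts (566).

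Patterns over the 4 libraries were compared by the Euclidean distance between log2 CPM values (0.5 CPM added), centred for each gene. The closest pair in the set was SFTPB and SFTPD, at a distance of 0.75, followed by SFTPA1 and SFTPD at 1.07, SFTPB and SLC34A2 at 1.11, NAPSA and SLC34A2 at 1.16, and SFTPC and ETV5 at 1.24. The most distant pair was NAPSA and ETV5, at 4.18. SFTPC was nearer to ETV5 than to SFTPB (1.72), SFTPD (1.31) or NAPSA (3.36). Among 9239 other genes with a symbol and a mean of at least 10 CPM, the 5 nearest to SFTPC were ASRGL1 (0.42), C1QTNF3 (0.47), FCGR1A (0.56), SLPI (0.57) and GPC6 (0.62). SLPI, a secreted protease inhibitor, was at 118 and 177 CPM in GFP-HI and at 447 and 112 CPM in GFP-NEG. With plain library-size CPM, 4 of these 5 were again among the nearest 5. A pattern over 4 libraries is a description only.

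Other genes of the type 2 cell also differed in both directions. Of 12 further markers, 8 had a row and were tested, with a median log2 fold change of 0.08, 2 higher and 1 lower. The shares over all genes were 8.35% higher and 27.6% lower. HHIP, an inhibitor of Hedgehog signalling that fibroblasts also express, was at 717 and 734 CPM in GFP-HI and at 287 and 24.6 CPM in GFP-NEG. Its log2 fold change was 2.22 ± 0.75 (SE, adjusted p of 0.0106, edgeR), with 4.94 without GFP-NEG replicate 1 and 1.30 without GFP-NEG replicate 2. The HHIP call was lost without GFP-NEG replicate 2 and without either GFP-HI library. DRAM1, a lysosomal membrane protein, rose by 1.77 (adjusted p of 0.0217, edgeR) and lost its call whichever library was left out, and with upper-quartile or library-size scaling. LRRK2, a kinase of lysosomes found in type 2 cells and leukocytes, fell by 2.13 (adjusted p of 6.37e-04, edgeR) and lost its call without either GFP-HI library (adjusted p of 0.0539 and 0.0639, edgeR). CTSH, a protease that trims surfactant protein precursors, had a log2 fold change of -0.74 and did not pass the test.

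Of 10 transcription factors of the type 2 lineage, 0 rose and ID2 fell, by 2.20 (adjusted p of 0.0134, edgeR), against 27.6% of all genes called lower. At an unadjusted p under 0.05 there was 1 higher and 1 lower factor, and DESeq2 called 0 higher and 1 lower. The ID2 call was lost without GFP-HI replicate 2 (-1.72) or GFP-NEG replicate 2 (-2.21). ID2 is an inhibitor of basic helix-loop-helix factors and is also used by lymphocytes. NKX2-1, at 3.90 and 0.0496 CPM in GFP-HI and 5.28 and 1.54 CPM in GFP-NEG, had a log2 fold change of -0.77 ± 1.11 (SE) and did not pass the test (adjusted p of 0.631, edgeR). GFP-HI replicate 2, with 1 count of NKX2-1, was the GFP-HI library with more SFTPC and SFTPA1. FOXA2, a forkhead partner of NKX2-1, likewise had 28 counts in GFP-HI replicate 1 and 1 count in GFP-HI replicate 2, and was chosen after its values were seen. The rest of the list varied: in these libraries GATA6 had 163 and 170 counts, ELF5 42 and 111, ETV4 120 and 91, and KLF5 106 and 68. CEBPA had 120 and 51 counts there, SREBF1 310 and 59, FOXA1 22 and 6, and ID2 5125 and 2430. The median of the 10 factors was -0.35.

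Surfactant phospholipid is made from choline and fatty acids by enzymes that all cells use. Of 15 genes of this synthesis, 1 rose and 1 fell, with a median of 0.18, against 8.35% of all genes called higher and 27.6% lower. ACACA, the acetyl-CoA carboxylase that starts fatty acid synthesis, rose by 1.41 (adjusted p of 0.0227, edgeR). The ACACA call was lost without GFP-HI replicate 1 or GFP-NEG replicate 2, under upper-quartile and library-size scaling, after thinning, and with DESeq2 (adjusted p of 0.0502). ACSL4, which activates long-chain fatty acids, fell by 2.60 (adjusted p of 7.79e-04, edgeR), and its call was lost without GFP-HI replicate 2 (-2.20).

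Of 9 tested genes of surfactant uptake and breakdown, 4 fell and 0 rose, with a median of -2.20, against 27.6% of all genes called lower; at an unadjusted p under 0.05 these were 5 and 0, and DESeq2 gave 4 and 0. CSF2 (-2.73), FABP4 (-1.42), MARCO (-0.74), PRDX6 (-0.265) and PPARG (-0.17) did not pass the test. The leukocyte list had a median of -3.81, and the part of leukocytes in the differences of this list was not tested. SPI1, the macrophage transcription factor PU.1, fell by 3.84 (adjusted p of 3.65e-08, edgeR). CSF2RB, the signalling chain of the GM-CSF receptor, fell by 3.63 (adjusted p of 1.62e-07, edgeR). Both calls were made with each library left out. ABCG1, a lipid exporter of macrophages, fell by 3.23 and lost its call without GFP-HI replicate 2 (adjusted p of 0.054, edgeR). ADGRF5, a receptor that sets the size of the surfactant pool and is also made by endothelium, fell by 2.20 and lost its call without GFP-HI replicate 2 or GFP-NEG replicate 1 (-0.95).

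**Figure D5:**
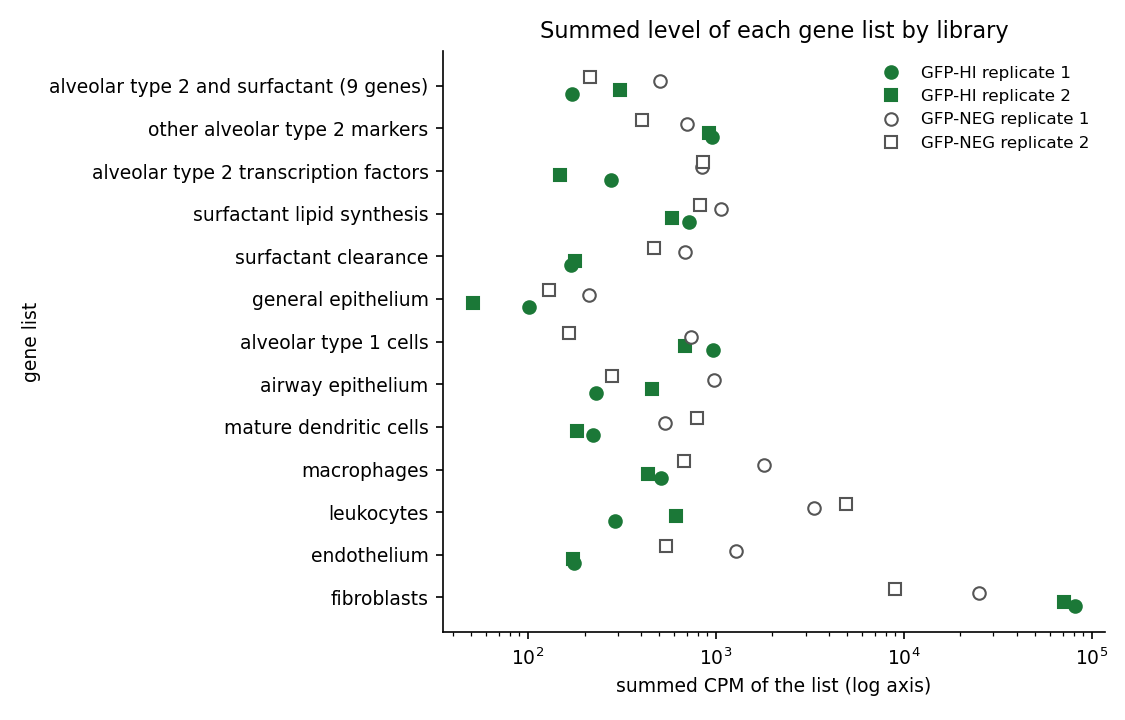
Summed TMM-scaled CPM of each gene list in each library, on a log axis, with symbols as in the plot of levels by library. The 9 surfactant genes sum to 170.9 and 310.7 CPM in GFP-HI and to 504 and 213 CPM in GFP-NEG, whereas leukocytes and endothelium are lower and fibroblasts higher in both GFP-HI libraries.

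Markers of other cells the fractions could hold moved with the groups as follows, and their part in the surfactant differences was not tested. None of the markers tested in these lists was at 0 in a library. General epithelium summed to 101 and 51.1 CPM in GFP-HI and 212 and 130 CPM in GFP-NEG. Of its 14 tested genes, 3 fell (CLDN4, CDH1 and CLDN3), a share below the 27.6% of all genes called lower. Its median log2 fold change was -1.20, with 12 genes negative and 2 positive, against a median of -0.25 over all genes tested. Alveolar type 1 genes summed to 963 and 684 CPM in GFP-HI and 734 and 166 CPM in GFP-NEG. Of these sums, EMP2 alone made 634 and 413.5 CPM in GFP-HI and 274 and 38.9 CPM in GFP-NEG. The median log2 fold change of the list was -0.34, with 6 genes negative and 3 positive. AGER was at 103 and 13.0 CPM in GFP-HI against 113.5 and 13.9 CPM in GFP-NEG. PDPN and EMP2, which fibroblasts and other cells also express, rose, and SPOCK2 fell, among 9 type 1 genes. Airway genes summed to 232 and 458 CPM in GFP-HI and 973 and 281 CPM in GFP-NEG. This sum, like that of the surfactant set, was lower in GFP-HI in replicate 1 and higher in replicate 2. Single genes differed from the sums. KRT5, TP63, FOXJ1 and SCGB3A2 were lower in GFP-HI in both replicates, whereas SCGB1A1, SCGB3A1, BPIFA1, BPIFB1 and TFF3 were higher in replicate 2. In the surfactant set, SFTPC made 54.8% of the counts in GFP-HI replicate 2 and 29.15% in GFP-NEG replicate 2. Among 9 airway genes, KRT5 and TP63, both markers of basal cells, fell, again a share below that of all genes. The median log2 fold change of the airway list was -1.22, with 9 genes negative and 0 positive.

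Of 7 mature dendritic cell genes, CCR7, CD1E, CD83 and CCL22 fell and FSCN1 rose (CCL22 was named after its values were seen). The shares over all genes were 27.6% lower and 8.35% higher. CCL19 (log2 fold change 0.95) and IDO1 (-1.69) did not pass the test. CSF1R, MRC1, C1QB and CD163 passed the test as lower among 8 macrophage genes, against 27.6% of all genes called lower. CD68, MSR1, C1QA and C1QC did not pass. Within replicate 2 they were 1.08, 1.63, 1.32 and 1.86-fold higher in GFP-HI, though CD68 and C1QA were lower there with library-size CPM. The median log2 difference of the list was -1.93 within replicate 1 and 0.03 within replicate 2. The calls of C1QB and CD163 were lost with the replicate block (adjusted p of 0.116 and 0.147, edgeR) and with DESeq2 (0.0826 and 0.111), and the log2 fold change of C1QB turned to 0.06 without GFP-NEG replicate 1. The macrophage sums were 510 and 436 CPM in GFP-HI and 1797 and 678 CPM in GFP-NEG. CD3E, CD14, MS4A1 and ITGAM were among the 7 of 8 leukocyte genes that fell, against 27.6% of all genes called lower. KDR, CLDN5, CDH5 and VWF were among the 6 of 6 endothelial genes that fell, against the same 27.6%. The endothelial sum was 1275 and 543 CPM in GFP-NEG and 175 and 174 CPM in GFP-HI. PDGFRA, FBLN1, LUM and DCN were among the 5 of 8 fibroblast genes that rose, against 8.35% of all genes called higher. COL1A1, COL1A2 and COL3A1 were higher in both GFP-HI libraries but did not pass the test. Of the 38 genes named by rule from all lists, 12 passed the test with each library left out, and 26 lost the call in at least 1 such fit: 20 when GFP-HI replicate 2 was left out, 13 for GFP-NEG replicate 2, 11 for GFP-HI replicate 1 and 10 for GFP-NEG replicate 1. With single libraries left out, the lists gave 7 lower leukocyte genes in each fit, 2 to 6 endothelial, 0 to 3 macrophage and 0 to 3 general epithelial genes, and 1 to 5 higher fibroblast genes.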

How the data were processed

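RNA of sorted pig lung cells was sequenced in 4 libraries made with the Nextera XT kit, per the labels' protocols. Each library has a table of unnormalized gene counts, deposited by the authors. The submitters' processing notes name featureCounts, Subread 1.5.2 and DESeq2 1.37.6; the aligner, genome build, strand setting and filters are not given in the sources used here. A further deposited table, of the comparison, lists 16250 genes with their log2 fold change, p-value and adjusted p; its count columns equal the single tables. Its 4 normalized columns were not used, because some of their headings do not match the library whose counts stand under them. Those headings number the pigs 1 and 2, and on this basis alone libraries with the same replicate number were taken as 1 animal. Across 19682 genes, their deviations from the group means correlated with an r of 0.179. Of the Ensembl identifiers, 844 had a symbol in the name table and 834 were renamed with it.

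Counts were tested with edgeR 4.0.16 (R 4.3.3) with TMM scaling, filterByExpr and group as the only term. DESeq2 1.42.0 was an alternative. For the 9 genes it gave the log2 fold changes and adjusted p-values of the authors' deposited table, so these are not separate checks. Counts were also simulated for 19682 genes, with a change in 197 of those tested. Of genes changed by a log2 of 3, 38.3% were recovered, and 6.67% of those changed by 2, with 0 in the wrong direction. In the real data 36% of genes were called, and the adjustment depends on that share. These recoveries therefore do not carry over to the present fit. Members and lists were chosen with earlier results of these data known. The genes named were the set, LGR5, EPCAM and NKX2-1, up to 4 called genes of each list by adjusted p, and the 5 nearest SFTPC. The leukocyte list was shortened by a gene that is not reported here. Overlapping genes and near-identical copies remain uncertain.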

Additional observations from a re-analysis of the deposited data

How the results depend on the processing

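In the 7 settings with all 4 libraries (RLE, upper-quartile and library-size scaling, no filter, the replicate block, DESeq2 and thinned counts), SFTPB, NAPSA and SLC34A2 were the 3 lower calls of the set and 0 genes were higher. Of 63 such fold changes of the 9 genes, 60 kept direction and call, and ETV5, near 0, changed sign to -0.073 (upper quartile), -0.15 (library size) and -0.041 (thinned counts). SFTPA1 within replicate 2 was -0.34 with library-size CPM, an alternative chosen after seeing the data. The all-gene median was -0.25 with TMM, -0.58 with upper-quartile and -0.68 with library-size scaling. Relative to that median, NAPSA was between -2.81 and -2.77, SFTPB between -1.36 and -1.31, and ABCA3 between 1.07 and 1.09 in the 4 scalings.

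Over all genes, higher calls numbered 1643 with TMM, 1083 with upper-quartile and 888 with library-size scaling. Lower calls numbered 5433, and 3562 with GFP-HI thinned to the GFP-NEG depth. The replicate block, which pairs libraries of the same replicate number, taken as 1 animal, gave 1707 higher and 4793 lower genes. It left the set at 3 lower and 0 higher calls, and of the genes named it ended the calls of C1QB (log2 fold change -1.21) and CD163 (-1.02), at adjusted p of 0.116 and 0.147 (edgeR).

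With 1 library left out, the set had 1 to 3 lower and 0 to 1 higher calls, and all genes had 216 to 1635 higher and 1575 to 4999 lower calls. SFTPC ranged from -1.29 to 1.07, SFTPA1 from -1.98 to 0.39, ETV5 from -0.69 to 2.11, NKX2-1 from -5.73 to 0.41 (0.26 without GFP-HI replicate 2) and C1QB from -2.27 to 0.065. The cause of these shifts was not tested. With 2 libraries a group and at most 7045652 counts in GFP-NEG, differences of the size seen for ABCA3 or SFTPD may not be detectable.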
